A study of Arabidopsis thaliana with 30 samples.

Results

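AGL21 (AT4G37940) and AGL42 (AT5G62165) encode transcription factors of the MADS-box family in Arabidopsis thaliana, and each was read by 1 probe set on the ATH1 array, 253014_at for AGL21 and 247469_at for AGL42. The pair was chosen from measured values, as named MADS genes with higher signal in root than in aerial explants after 96 h on callus-inducing medium. They are 2 of the 13350 genes that a probe set names alone, of which 9082 have a probe set bright enough to be tested. Both genes stood far above the aerial level in root explants at every time, also on the arrays from 0 to 48 h that the rule at 96 h did not use. This is a description, since both probe sets were bright enough to be tested only through root arrays. The genes were also chosen with earlier results of these data known. AGL21 was called higher in root explants at 12, 24 and 48 h than at 0 h, by calls that lay near the threshold and were lost under several settings, and its aerial signal was highest at 96 h. AGL42 had no called change in either organ up to 48 h; the time courses of the genes were not tested against each other.

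MADS factors of the plant type bind DNA as dimers or larger complexes at CArG-box sites and are best known as regulators of flowering and floral organs, but several act in roots. AGL21 belongs to the ANR1/AGL17 clade, named for ANR1, which is known for lateral root growth in response to nitrate, and AGL21 itself is known to promote lateral root development through local auxin synthesis. AGL42 belongs to the clade of SOC1, an integrator of flowering signals. It is known from enhancer-trap work as a marker of the quiescent centre of the root meristem and, under the name FOREVER YOUNG FLOWER, as a repressor of floral senescence and abscission. Callus of Arabidopsis forms from pericycle-like cells along a pathway that resembles the start of a lateral root, also in explants of aerial organs.

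The study followed wild type Columbia-0 explants, cut as root segments or aerial organs from seedlings 10 days old that had grown on MS medium at 22 °C under light for 16 h and dark for 8 h of each day. RNA was taken at 0, 12, 24, 48 and 96 h on callus-inducing medium, whose composition the sources used here do not give, and about 5 µg of it per sample was labelled with biotin for 1-colour arrays. The 30 arrays fall into 10 groups of 3, numbered as biological replicates in the labels. There are no explants kept off the medium, so a change against 0 h cannot be told apart from cutting, age or time of day.

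Values are MAS5 signal, the authors' background-corrected brightness of a probe set on a linear scale, which had been scaled to the same trimmed mean of 500 on each array. Array medians lay between 139.1 and 182.7, and between 57.92% and 62.58% of probe sets per array lay above 87.4, the signal used as the filter on dim probe sets. Probe sets with 3 or more arrays above that signal were tested, 16765 of 22810. The leaf mesophyll markers separated the organs on every array, and the other marker lists did so at some times. The 5 measured of 9 leaf mesophyll markers (RCA, LHCB4.2, PSAN, PRK and SBPASE) summed to between 243.7 and 460.2 on every root array and to between 87520 and 127100 on the aerial arrays at 0 h. The 2 measured of 6 root hair markers, the expansins EXPA7 and EXPA18, summed to between 896.5 and 2423 in root explants at 12 h and to between 28.3 and 89.2 in aerial explants at that time, but the organs overlapped for them at 0 h (65.5 to 262.9 against 21.3 to 109.5), 48 h (74.7 to 498.1 against 40.4 to 94.1) and 96 h (70.2 to 281.4 against 113 to 214.6). GSO1, the 1 measured of 7 endodermis markers, was higher in root explants without overlap except at 96 h (95.5 to 117.9 against 82.8 to 122.3). The 3 measured of 6 leaf epidermis markers (SPCH, FMA and TRY) had a summed signal higher in aerial explants without overlap except at 12 h (130.9 to 145.8 against 22.8 to 157.5). Gene by gene, SPCH overlapped between the organs at 12, 48 and 96 h and TRY at 12, 24, 48 and 96 h. Only FMA did not overlap at any time. TRY had the lower mean in aerial explants at 96 h (12.7 against 28.5). No probe set named a marker of the root stele alone, so none was measured. With 3 arrays a group, precision is limited by their number. A p-value reflects only how far arrays scatter within groups, with the spread pooled over all groups and drawn toward that of other probe sets. In whole explants, fewer cells of a type and less RNA per cell cannot be told apart.

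AGL21, the lateral root gene, gave strong signal on every root array. At 0 h the 3 root arrays read 502.2, 453.0 and 394.9, a mean of 450 ± 53.7 (SD, n = 3). They read 953.3, 548.7 and 755.2 at 12 h (mean 752 ± 202) and 904.3, 682.9 and 697.8 at 24 h (mean 762 ± 124). The arrays at 0 h were the lowest of the organ, and none of the later arrays fell into their range. At 48 h the readings were 776.9, 717.1 and 671.2 (mean 722 ± 53.0), and at 96 h they were 1039.7, 661.7 and 810.1 (mean 837 ± 190). The 4 later groups overlapped one another.

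Aerial explants gave AGL21 signals near the bottom of the array's range until 96 h. The arrays read 3.3, 2.0 and 4.2 at 0 h (mean 3.17 ± 1.11, n = 3), then 8.3, 22.6 and 3.1 at 12 h (mean 11.3 ± 10.1). They read 2.5, 6.5 and 20.3 at 24 h (mean 9.77 ± 9.34) and 10.3, 27.0 and 6.1 at 48 h (mean 14.5 ± 11.1). These 4 groups lay in the range where MAS5 signals carry little order, with single arrays well above their neighbours. At 96 h the arrays read 80.7, 87.5 and 52.1 (mean 73.4 ± 18.8), so all 3 exceeded every earlier aerial array, and all 3 remained far below the lowest root array. Of the 15 aerial arrays, 10 lay below 22, the 20th percentile of all signals, and 1, at 96 h, lay above 87.4.

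AGL42, the quiescent-centre marker, was as plainly a root signal. The root arrays read 732.5, 553.4 and 612.8 at 0 h (mean 633 ± 91.2, n = 3) and 915.4, 463.8 and 542.3 at 12 h (mean 640.5 ± 241). At 24 h they read 820.1, 533.1 and 588.3 (mean 647 ± 152), and at 48 h they read 1101.9, 541.5 and 521.4 (mean 722 ± 330). In each of these groups 1 array stood above the other two, and the 4 groups overlapped. At 96 h the arrays read 551.3, 375.1 and 463.1 (mean 463 ± 88.1), and the highest of them lay just under the lowest at 0 h.

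No aerial array reached the filter signal for AGL42, so its probe set was tested only through its root arrays. The aerial readings were 1.4, 1.2 and 1.3 at 0 h (mean 1.3 ± 0.1, n = 3) and 12.4, 5.9 and 22.6 at 12 h (mean 13.6 ± 8.42). They were 16.1, 2.6 and 2.4 at 24 h (mean 7.03 ± 7.85) and 3.8, 2.9 and 4.7 at 48 h (mean 3.80 ± 0.9). At 96 h they were 4.4, 9.5 and 19.7 (mean 11.2 ± 7.79). The arrays at 0 h were the lowest of all, and 14 of the 15 aerial arrays lay below 22.

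**Figure D1:**
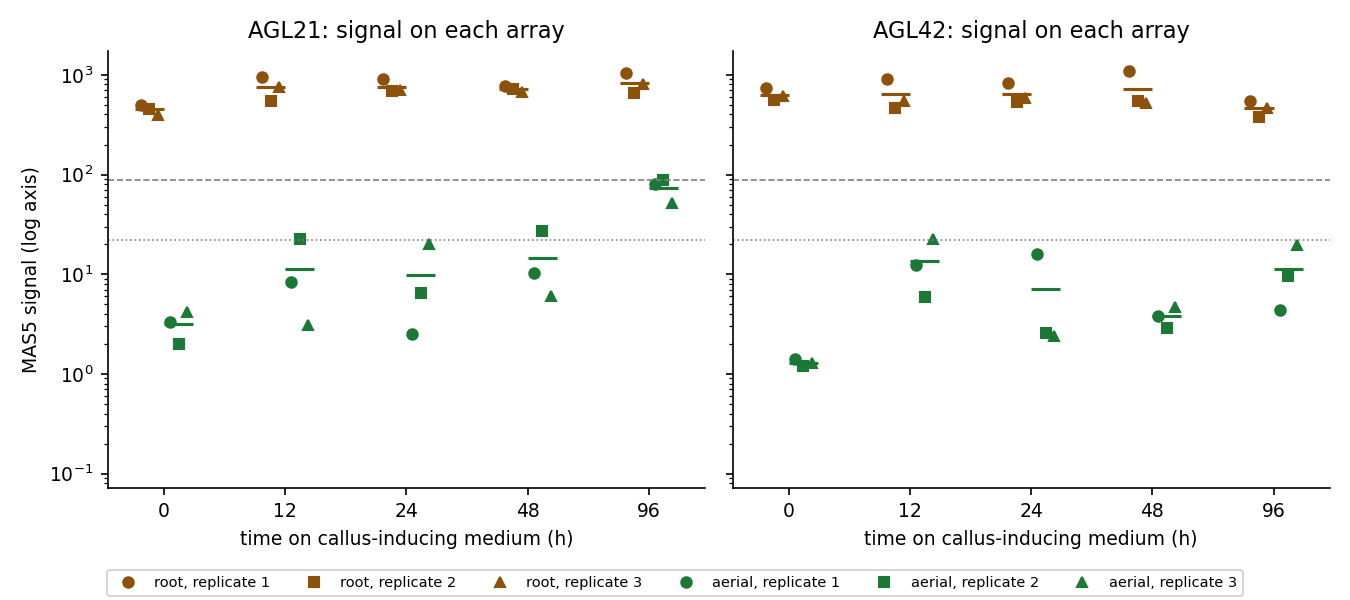
MAS5 signal (log axis) of AGL21 and AGL42 on each of the 30 arrays against time on the medium in hours, with root explants in brown, aerial explants in green, 1 marker shape per replicate number and a bar at each group mean. The dashed line is the filter signal of 87.4 and the dotted line the pseudocount of 22. Every root array lies at 375.1 or above, and the aerial arrays of AGL21 at 96 h, from 52.1 to 87.5, stand apart from the earlier aerial arrays.

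Ordered by mean signal, the AGL21 groups ran from root at 96 h through root at 24 h, 12 h, 48 h and 0 h to aerial at 96 h, 48 h, 12 h, 24 h and 0 h. Neighbours overlapped except at 3 places: below root at 48 h, below root at 0 h and below aerial at 96 h. For AGL42 the order was root at 48 h, 24 h, 12 h, 0 h and 96 h, then aerial at 12 h, 96 h, 24 h, 48 h and 0 h. There, too, neighbours overlapped except at 3 places, namely between root at 0 h and at 96 h, between the organs, and between aerial at 48 h and at 0 h.

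Both genes were higher in root than in aerial explants before the explants met the medium and stayed so. The comparison was made on log2(signal + 22), a scale that understates the change of dim genes, with limma fitted to all 30 arrays and Benjamini-Hochberg adjustment over the 16765 probe sets. For AGL21 the difference, root minus aerial, was 4.22 ± 0.267 (SE, n = 3 against 3) at 0 h, which is 18.7-fold on this scale (limma adjusted p = 3.46e-14). It was 4.55 at 12 h (23.4-fold, limma adjusted p = 1.24e-14), 4.65 at 24 h (limma adjusted p = 7.57e-15) and 4.39 at 48 h (21.0-fold, limma adjusted p = 4.54e-14). The 4 differences lay close together, and the groups did not overlap at any time.

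AGL42 differed by 4.80 ± 0.292 at 0 h (27.9-fold, limma adjusted p = 1.46e-14) and by 4.18 at 12 h (18.2-fold, limma adjusted p = 5.96e-13). The difference was 4.54 at 24 h (23.2-fold, limma adjusted p = 1.07e-13) and 4.76 at 48 h (27.2-fold, limma adjusted p = 5.45e-14). So 2 of 2 genes were called higher in root explants at each of the 4 times, where 31.9%, 34.4%, 36.1% and 31.5% of all probe sets were so called at 0, 12, 24 and 48 h. A call of this kind was therefore common. Both probe sets passed the filter only through root arrays, since AGL21 had 1 aerial array above it and AGL42 had 0. The count over the pair and the p-values for this direction are therefore descriptions and support nothing by themselves.

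Averaged over the 4 times, the difference was 4.45 ± 0.133 for AGL21 (limma adjusted p = 1.57e-22) and 4.57 ± 0.146 for AGL42 (limma adjusted p = 7.45e-22). Of all probe sets, 45.9% were called higher in root explants on this average. Root arrays above aerial arrays without overlap at all of 0, 12, 24 and 48 h were found for 2329 probe sets, 13.9% of those tested, both genes included. The fold depends on the pseudocount because the aerial readings are so dim: with none, the difference at 0 h was 7.21 for AGL21 and 8.92 for AGL42.

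At 96 h, the time used to choose the genes, the difference is given as a description with no test. It was 3.17 ± 0.267 for AGL21 and 3.88 ± 0.292 for AGL42, where the median of all probe sets was 0.18 and 28.9% were called higher in root explants. For AGL21 this is below its value at each earlier time, except that with a pseudocount of 100 it was 2.42 against 2.41 at 0 h, and its root mean at 96 h was the highest of the 5, so the smaller difference stands beside the higher aerial readings. For AGL42 it is also the smallest of the 5, beside the lowest root mean.

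**Figure D2:**
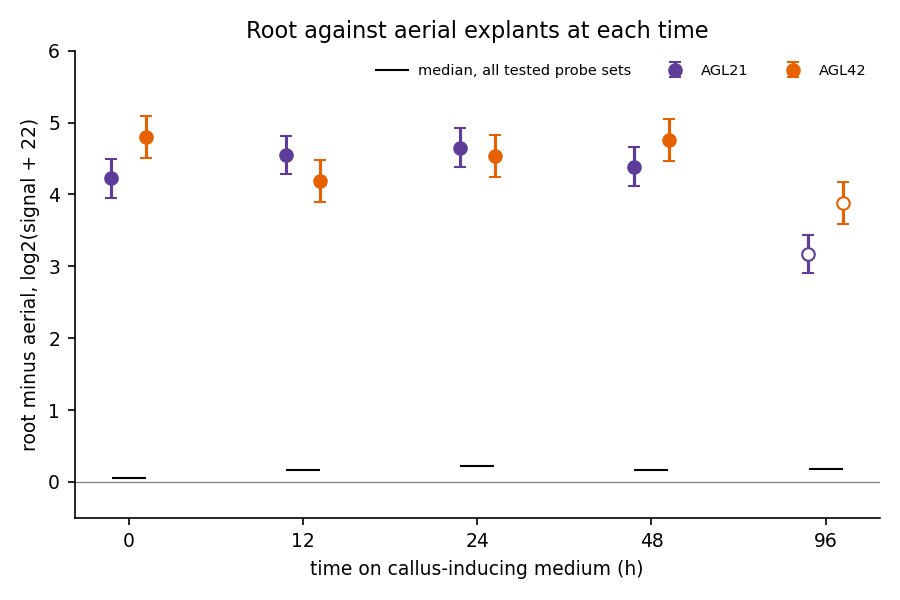
Root minus aerial difference in log2(signal + 22) for AGL21 and AGL42 at each time on the medium (hours), with bars of 1 SE from the fit and a short black line at the median of all 16765 tested probe sets. Open points at 96 h mark the time used to choose the genes. All points lie between 3.17 and 4.80, far above the medians of 0.05 to 0.23.

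In root explants AGL21 was called higher at 12, 24 and 48 h than at 0 h, with no called step between these times. The change against 0 h was 0.69 ± 0.267 at 12 h (1.61-fold, limma adjusted p = 0.0432), 0.73 at 24 h (1.65-fold, limma adjusted p = 0.0271) and 0.66 at 48 h (1.58-fold, limma adjusted p = 0.0396). All 3 later arrays lay above all 3 at 0 h each time. Probe sets called higher than at 0 h made up 21.7%, 27.1% and 31.6% of those tested at 12, 24 and 48 h, with a median change over all probe sets of 0.10, 0.15 and 0.20. From 12 to 24 h the step was 0.04 (limma adjusted p = 0.956) and from 24 to 48 h it was -0.07 (limma adjusted p = 0.95). At 96 h, as a description, the value stood 0.85 ± 0.267 above 0 h.

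These calls lay close to the threshold. After centring arrays on their medians the changes were 0.55, 0.60 and 0.48 (limma adjusted p = 0.11, 0.0728 and 0.149), and without the 5 root arrays numbered 1 they were 0.58, 0.68 and 0.69 (limma adjusted p = 0.226, 0.133 and 0.115). Single arrays also ended them in limma: at 12 h without root 0 h replicate 1, 2 or 3 (adjusted p = 0.0526, 0.0842 and 0.133), root 12 h replicate 1 or 3 (0.206 and 0.0993), root 48 h replicate 3 (0.0502) or root 96 h replicate 3 (0.0504). The call at 24 h was lost without root 0 h replicate 2 or 3 (limma adjusted p = 0.0565 and 0.0918) or root 24 h replicate 1 (0.118). At 48 h it was lost without root 0 h replicate 2 or 3 (limma adjusted p = 0.0746 and 0.121) or root 48 h replicate 1, 2 or 3 (0.105, 0.0752 and 0.0591). A single F test of any change from 0 to 48 h in root explants gave a limma adjusted p of 0.0555, where 56.3% of probe sets passed. That F test passed without root 12 h replicate 2 (limma adjusted p = 0.0306), aerial 12 h replicate 2 or 3 (0.042 and 0.0488), aerial 24 h replicate 1 or 3 (0.0497 and 0.0426) or aerial 48 h replicate 2 (0.0431).

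In aerial explants the AGL21 change was 0.36 at 12 h (limma adjusted p = 0.34), 0.30 at 24 h (limma adjusted p = 0.46) and 0.49 at 48 h (limma adjusted p = 0.168), each with an SE of 0.267. All 3 arrays at 48 h lay above those at 0 h, but at signals no higher than 27.0. The 96 h arrays gave 1.90 ± 0.267 above 0 h and 1.41 above 48 h, with no test. The size of the first depends on the pseudocount, from 0.74 with 100 to 4.57 with none. The leaf mesophyll markers moved the other way, from 87520 to 127100 summed at 0 h to between 8349 and 11350 at 96 h. EXPA7 and EXPA18 summed to between 113 and 214.6 at 96 h against 21.3 to 109.5 at 0 h. Limma called neither of them at 96 h against 0 h, where 44.5% of all probe sets were called. GSO1, also not called, read 82.8 to 122.3 at 96 h against 85.4 to 197.7 at 0 h. The part of these markers in the AGL21 value was not tested.

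AGL42 showed no called change over time in root explants. The change against 0 h was -0.03 ± 0.292 at 12 h (95% interval -0.63 to 0.56, limma adjusted p = 0.942), 0.02 at 24 h (-0.58 to 0.61, limma adjusted p = 0.969) and 0.11 at 48 h (-0.49 to 0.70, limma adjusted p = 0.786). These intervals leave room for a change of about 1.6-fold in either direction. The F test over 0 to 48 h gave a limma adjusted p of 0.975. At 96 h the value was 0.44 lower than at 0 h and 0.55 lower than at 48 h on the log2 scale, described without a test.

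The aerial AGL42 changes were 0.59 at 12 h (limma adjusted p = 0.142), 0.28 at 24 h (limma adjusted p = 0.527) and 0.15 at 48 h (limma adjusted p = 0.751), with 0.49 at 96 h as a description. At each later time all 3 arrays lay above those at 0 h, at signals of 22.6 or less. Without a pseudocount the change at 12 h was 3.19 (limma adjusted p = 3.81e-04) and that at 24 h was 1.84 (limma adjusted p = 0.0343), and the AGL21 change at 48 h was 1.98 (limma adjusted p = 0.0172), so these calls at the bottom of the scale turn on how it is treated.

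Neither gene was called in aerial explants by limma at 12, 24 or 48 h (0 of 2 each time, and 0 of 2 at an unadjusted p below 0.05), where 27.3%, 23.8% and 31.3% of probe sets changed. The steps from 12 to 24 h and from 24 to 48 h also gave 0 of 2 calls in either organ, and 0 of 2 unadjusted. In all, 8.63% and 3.83% of probe sets passed for these steps in root explants and 1.29% and 4.35% in aerial explants. The F test over 0 to 48 h in aerial explants, passed by 36.0% of probe sets, gave a limma adjusted p of 0.434 for AGL21 and 0.359 for AGL42.

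The root change was also set against the aerial change in the same fit. For AGL21 the root change exceeded the aerial one by 0.32 ± 0.377 at 12 h (limma adjusted p = 0.55), 0.43 at 24 h (limma adjusted p = 0.381) and 0.17 at 48 h (limma adjusted p = 0.745). For AGL42 the values were -0.62 ± 0.412 at 12 h (limma adjusted p = 0.263), -0.27 at 24 h (limma adjusted p = 0.633) and -0.04 at 48 h (limma adjusted p = 0.945). Thus 0 of 2 genes were called in limma, with 0 of 2 at an unadjusted p below 0.05, against 31.0%, 38.7% and 44.7% of all probe sets at 12, 24 and 48 h. The called AGL21 rise in root explants is therefore not shown to differ from the aerial change. At 96 h the differences were -1.06 for AGL21 and -0.92 for AGL42, described without a test.

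**Figure D3:**
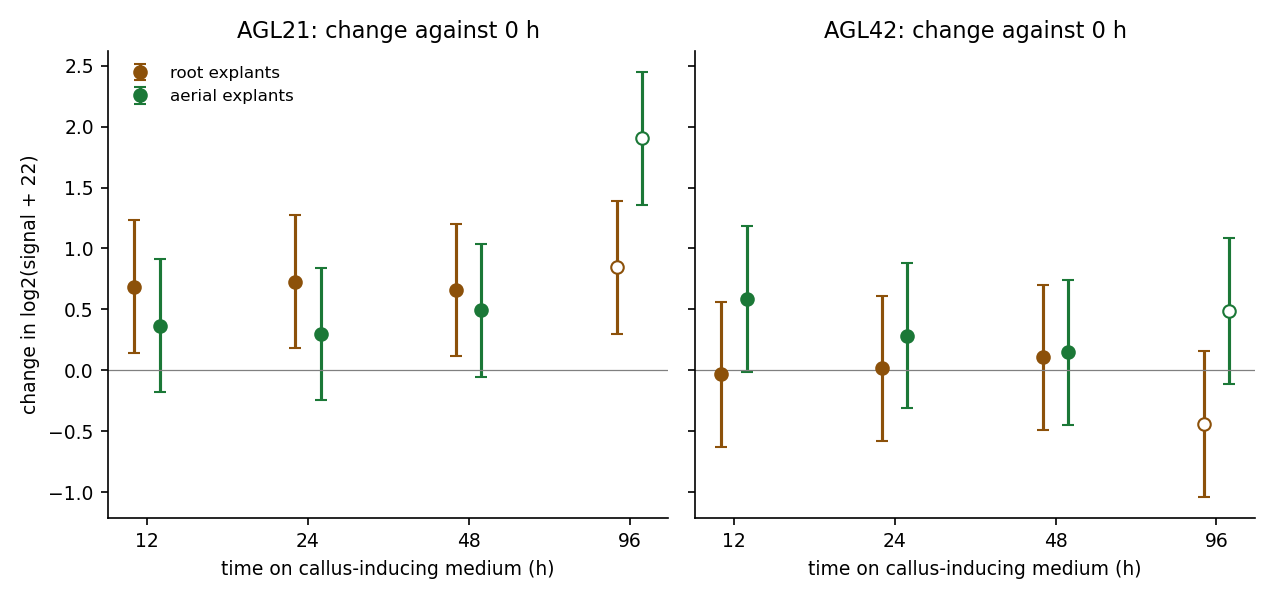
Change against 0 h in log2(signal + 22) at 12, 24, 48 and 96 h for AGL21 and AGL42, with root explants in brown, aerial explants in green and bars of the 95% confidence interval from the fit. Open points at 96 h mark the arrays used to choose the genes. The 3 root points of AGL21 from 12 to 48 h lie between 0.66 and 0.73 with intervals above 0, and the aerial value of 1.90 at 96 h is the largest.

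One feature of the arrays ran through the root values. The array numbered 1 was the highest of its root group at all 5 times for both AGL21 and AGL42, a pattern that 561 probe sets (3.35%) shared. The median of the array numbered 1 was also the highest in 4 of the 5 root groups. After each array was centred on its median, the pattern held in 4 of 5 groups for AGL21 and in 5 of 5 for AGL42. Aerial explants did not show it (0 of 5 and 2 of 5 groups). Without those 5 arrays the root minus aerial difference at 0, 12, 24 and 48 h was 4.14, 4.36, 4.53 and 4.34 for AGL21. For AGL42 it was 4.70, 3.904, 4.36 and 4.42. Each was called, which is a description for genes that passed the filter only through root arrays.

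The MADS relatives were read thinly. Of 44 other MADS genes listed, 14 have a probe set that names them alone, and 6 of these were bright enough to be tested. The 6 are AGL16 of the ANR1/AGL17 clade, AGL71 and AGL19 of the SOC1 clade, and AGL18, AGL65 and AGL79. The other 8 (AGL72, AGL24, AGL30, AGL66, AGL67, AGL94, AGL104 and AGL33) gave a median signal of 26.1 or less each. Of the 6, limma called 3, 4, 4 and 4 higher in root explants at 0, 12, 24 and 48 h and 3 at 96 h, and it called 0 lower at any of these times. Over all probe sets, 31.9%, 34.4%, 36.1%, 31.5% and 28.9% were called higher in that order. At an unadjusted p below 0.05 in either direction there were 3, 4, 4, 5 and 3. Their median difference was 0.90, 1.24, 1.12, 0.95 and 1.09 in that order. Because AGL71, AGL19 and AGL79 passed the filter only through root arrays, a count over the tested genes does not describe the family. For the same reason, the root minus aerial p-values of these genes are descriptions.

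AGL71, a close relative of AGL42 that acts in flowering of the shoot apex and axils, had the same direction, in a probe set tested only through its root arrays. Its root arrays lay between 76.9 and 171.3 with a median of 136.1, and its aerial arrays between 1.5 and 45 with a median of 4.2, without overlap. The difference was 2.07 ± 0.347 at 0 h (limma adjusted p = 7.11e-06), 2.69 at 12 h (limma adjusted p = 1.41e-07), 1.57 at 24 h (limma adjusted p = 2.9e-04), 2.63 at 48 h (limma adjusted p = 3.01e-07) and 2.605 at 96 h (limma adjusted p = 5.28e-07). AGL71 showed no called change over time in either organ.

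AGL19, a flowering activator of the same clade that responds to long cold, read between 65.8 and 181.1 in root explants and between 0.8 and 66.8 in aerial explants, which overlapped slightly. Its difference was 1.65 at 0 h (limma adjusted p = 0.00165), 2.203 at 12 h (limma adjusted p = 8.29e-05) and 1.75 at 96 h (limma adjusted p = 0.00152). At 24 and 48 h it was 1.17 and 1.28 (limma adjusted p = 0.0216 and 0.0143). The call at 24 h was lost in limma without root 24 h replicate 1 or 3 or aerial 24 h replicate 1 (adjusted p = 0.076, 0.0519 and 0.19), and that at 48 h without root 48 h replicate 3 or aerial 48 h replicate 3 (0.0691 and 0.142). With no pseudocount, the calls at 0, 24 and 48 h were lost (limma adjusted p = 0.0733, 0.11 and 0.0525).

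AGL16, the clade mate of AGL21 and known as a target of a microRNA in stomatal development, had overlapping signal in the organs, from 50.2 to 215.5 in root and from 78.6 to 238 in aerial explants. Its difference was -0.54, -0.26, 0.16 and -0.76 at 0, 12, 24 and 48 h (limma adjusted p = 0.278, 0.62, 0.754 and 0.13) and -0.07 at 96 h (limma adjusted p = 0.9). AGL65, a MADS gene of pollen, read -0.29, -0.13, -0.05, -0.80 and 0.07 at the 5 times and was not called.

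AGL79 and AGL18 were the relatives that changed over time in root explants. AGL79, a member of the group of AP1 and FUL, read 188.8 to 304.3 in root explants at 0 h and 32.1 to 127.4 afterwards. It fell by 1.82, 1.66 and 1.26 on the log2 scale at 12, 24 and 48 h (limma adjusted p = 3.84e-04, 7.75e-04 and 0.0068) and by 1.70 at 96 h (limma adjusted p = 4.2e-04), while 15.5%, 17.8%, 19.7% and 21.0% of all probe sets fell at these times. A second AGL79 probe set, too dim to be tested, read 66.8 to 115.3 at 0 h and 3 to 55.3 later. With no pseudocount the falls at 12, 24, 48 and 96 h were not called (limma adjusted p = 0.162, 0.2, 0.332 and 0.161). Its root minus aerial difference was 3.20 at 0 h and between 1.355 and 1.85 afterwards, called at all 5 times.

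AGL18, known as a repressor of flowering and expressed here in both organs, went the other way. It rose in root explants by 0.99 at 12 h and 0.99 at 24 h (limma adjusted p = 0.00133 and 0.00105) and by 0.61 at 48 h (limma adjusted p = 0.0307), and stood 0.51 above 0 h at 96 h (limma adjusted p = 0.0669). The 48 h rise was not called after centring or quantile normalization (limma adjusted p = 0.138 and 0.141), or without root 0 h replicate 2 or 3 or root 48 h replicate 1 or 2 (0.128, 0.0804, 0.17 and 0.054). Its root minus aerial difference was 0.14 at 0 h (limma adjusted p = 0.626), 1.12 at 12 h (limma adjusted p = 1.69e-04) and 1.06 at 24 h (limma adjusted p = 3.14e-04). It was 0.63 at 48 h (limma adjusted p = 0.0248), a call lost in limma without root 48 h replicate 1 or aerial 48 h replicate 1 or 2 (adjusted p = 0.142, 0.0581 and 0.0547), and 0.42 at 96 h (limma adjusted p = 0.139). In aerial explants limma called 0 of the 6 relatives at 12, 24, 48 or 96 h, and 0 at an unadjusted p below 0.05, where 27.3%, 23.8%, 31.3% and 44.5% of all probe sets were called.

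**Figure D4:**
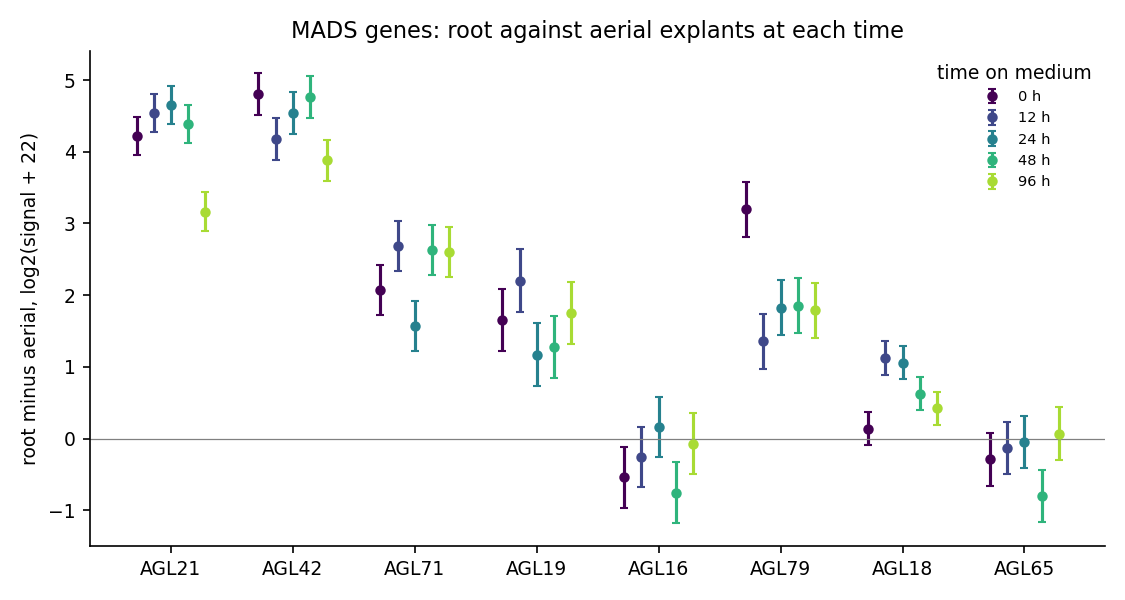
Root minus aerial difference in log2(signal + 22) at 0, 12, 24, 48 and 96 h (dark to light points, bars of 1 SE from the fit) for AGL21, AGL42 and the 6 other MADS genes that were tested. AGL71, AGL19 and AGL79 lie above 0 at every time, AGL16 and AGL65 lie around 0, and the difference of AGL79 is largest at 0 h.

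Genes of the pathways tied to AGL21 and AGL42 were read in part. Of 12 auxin synthesis genes only YUC2, a flavin monooxygenase of the main route to auxin, was measured. It went opposite to AGL21, lower in root than in aerial explants, with a root minus aerial difference of -1.78, -1.96, -1.85 and -1.61 at 0, 12, 24 and 48 h (limma adjusted p = 1.43e-04, 5.11e-05, 1.01e-04 and 5.94e-04) and of -0.59 at 96 h (limma adjusted p = 0.195). Over all probe sets, 30.2%, 25.8%, 25.4% and 24.2% were called lower in root explants at 0, 12, 24 and 48 h. The root arrays of YUC2 read 78.2 or less, below the filter signal of 87.4, so its probe set was tested only through aerial arrays. Its root minus aerial p-values are therefore descriptions. YUC2 was not called over time in root explants, and in aerial explants it was 1.15 lower at 96 h than at 0 h on the log2 scale (limma adjusted p = 0.0131). That call was lost with no pseudocount and without aerial 0 h replicate 1 (limma adjusted p = 0.122 and 0.0591).

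Of 11 genes of lateral root initiation, 3 were measured: LBD16 and LBD29, transcription factors induced by auxin at the first divisions, and PUCHI, an AP2-type factor of the young primordium. All 3 rose at 48 h in both organs, where 31.6% of probe sets rose in root explants and 17.4% in aerial explants. In root explants LBD16 was 3.08, LBD29 5.14 and PUCHI 4.12 above 0 h at 48 h (limma adjusted p = 2.67e-09, 1.41e-10 and 2.84e-11). The aerial values at 48 h were 3.37, 5.285 and 3.46 (limma adjusted p = 2e-09, 3.23e-10 and 2.95e-09). The AGL21 change in root explants at that time was 0.66, and that of AGL42 was 0.11. At 96 h LBD29 was 2.91 lower in root than in aerial explants on the log2 scale (limma adjusted p = 4.06e-06), with 209.8 to 308.1 in root and 1654.2 to 2395.1 in aerial explants, whereas LBD16 and PUCHI were higher in root explants by 1.16 and 2.145 (limma adjusted p = 0.00271 and 3.98e-06).

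Of 10 genes of the root stem cell niche, which AGL42 marks, 3 were measured: BBM, a PLETHORA-type factor of stem cell identity, JKD, a zinc finger factor of the ground tissue and quiescent centre, and AT3G24240. BBM was higher in root explants by 1.31 at 12 h and 1.37 at 24 h (limma adjusted p = 0.0079 and 0.00563), the first not called without root 12 h replicate 3 (0.0825). It was not called between organs at 0 or 48 h. At 96 h it was higher by 1.01 (limma adjusted p = 0.0447), a call lost in 5 settings and without root 48 h replicate 3, root 96 h replicate 1 or 3, or aerial 96 h replicate 1, 2 or 3 (adjusted p from 0.0506 to 0.352). It read 30.8 to 48.2 in root and 1.8 to 63.8 in aerial explants at 0 h, and 453.7 to 619.9 and 230.8 to 285.8 at 96 h, a rise of 3.26 and 2.92 (limma adjusted p = 1.61e-07 and 1.33e-06). The AGL42 root mean at 96 h was the lowest of the 5 times. JKD was lower in root explants at 24 h, with a difference of -1.17 (limma adjusted p = 0.00664) and was not called between organs at the other times. AT3G24240, which the annotation used here gives no symbol, had a root minus aerial difference of 2.59, 3.50, 3.37, 2.14 and 1.69 at the 5 times (limma adjusted p from 2.57e-11 to 2.21e-05). No probe set named a gene of the nitrate list or of the list of EDF and abscission genes alone, so none was measured. Because 8794 probe sets had no name in the annotation used here, the signal of these genes is not known.

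Likeness over the 10 group means of log2(signal + 22) was ranked over 1278 probe sets with a gene symbol, as a description. Closest to AGL21 were CRK (AT4G01710), a subunit of the actin-nucleating ARP2/3 complex, with a Pearson r of 0.989, then UGT73C7, a glycosyltransferase, with 0.979, FMO (AT1G12200), a flavin monooxygenase, with 0.976, LSM6A, an RNA-binding protein of splicing and decay complexes, with 0.975, and AGL42 itself with 0.973. Closest to AGL42 were SIZ1, a SUMO ligase, with 0.992, then CRK with 0.981, UGT73C7 with 0.973, AGL21 with 0.973 and GMII, a Golgi mannosidase, with 0.972. An r over 0.95 was reached by 27 probe sets for AGL21 and by 17 for AGL42. The 10 points share the step between the organs, so a high r can come from that step alone. Over the 5 root means alone, the r with AGL21 was 0.70 for CRK, 0.927 for UGT73C7, 0.952 for FMO and 0.753 for LSM6A. With AGL42 it was -0.491 for SIZ1, -0.543 for CRK, -0.187 for UGT73C7 and 0.564 for GMII. Between AGL21 and AGL42 the r over these root means was -0.381.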

How the data were processed

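The deposited values are MAS5 signal intensity, 1 value per probe set and array on a linear scale. Per the submitters' processing notes the tool was MAS5, of a version that the sources used here do not give. Intensity values as deposited by the authors had a mean near 500 on each array after trimming 2% at each end, so the arrays had been scaled before deposit. Probe sets were named by the platform's annotation of 2016, which gave 13513 probe sets 1 gene, 503 several and 8794 none; those are unnamed here. The 64 control probe sets were left out.

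From these, log2(signal + 22) was computed, with 22 the 20th percentile of all values. Tests covered the 16765 probe sets with 3 or more arrays above 87.4 (the 40th percentile). Group means of all 30 arrays were fitted with limma 3.58.1 in R 4.3.3 (lmFit, eBayes with trend, 28.6 degrees of freedom, two-sided), with Benjamini-Hochberg adjustment over all tested probe sets within each comparison and calls at an adjusted p below 0.05. The fit was tested on simulated data. Comparisons that hold 96 h arrays got no test for AGL21 and AGL42.

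The members and the gene lists were chosen with earlier results of these data known. Named are AGL21, AGL42, every measured gene of their clades, the called members of each other list with the largest differences (at most 4), and the 5 genes with a symbol most alike to each over the 10 group means. Other list members are named where a count needs them. Groups and replicate numbers come from the labels. Same-numbered arrays all exceeded a correlation of 0.1 in 2 of 45 pairs of groups, aerial 0 with 12 h (0.167 to 0.173) and aerial 12 with 24 h (0.269 to 0.302). For these comparisons the numbers may pair the arrays, though the labels do not say so. The main fit took no arrays as pairs, and a replicate block changed no call of AGL21 or AGL42. Alternatives were the pseudocount, the scaling, the filter, the trend, the replicate block and leaving out each array. A fit without the 5 root arrays numbered 1 was chosen after seeing the data.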

Additional observations from a re-analysis of the deposited data

Results flagged for a closer look

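The changes of AGL42 at 96 h against 0 h had opposite signs in the 2 organs. They were -0.44 (95% interval -1.04 to 0.16) in root explants and 0.49 (-0.11 to 1.08) in aerial explants, and both intervals include 0. All 3 root arrays lay below all 3 at 0 h, and all 3 aerial arrays lay above all 3 at 0 h, with a root minus aerial change of -0.92 on the log2(signal + 22) scale. The difference was not tested, because the 96 h arrays were used to choose the gene. The highest root array at 96 h (551.3) lies just under the lowest at 0 h (553.4), and the aerial arrays at 96 h read 19.7 or less. The aerial arrays at 12, 24 and 48 h also all lay above those at 0 h.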

How the results depend on the processing

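The root minus aerial difference of AGL21 and AGL42 at 0, 12, 24 and 48 h, and its mean, kept direction and call under the 7 planned settings, the 30 fits without 1 array each, and the fit without the 5 root arrays numbered 1. Because both probe sets passed the filter only through root arrays, the kept calls are descriptions too. What the arrays limit is the aerial signal: near the bottom of the scale it has little order, so the size of aerial changes follows the pseudocount. For root explants, centring moved the median over all probe sets by -0.132 (12 h), -0.125 (24 h), -0.184 (48 h) and -0.267 (96 h), and quantile normalization moved it by -0.103 (96 h). The replicate block changed no call of AGL21 or AGL42 (AGL21 in root explants at 12 h 0.69, limma adjusted p = 0.0421) and gave 6579 called probe sets in root explants at 12 h in place of 6250. Every array correlated best with its own number in 5 of 45 pairs of groups, a hint from the data only, and correlations of same-numbered arrays ran from -0.117 to 0.389.

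For AGL21 in root explants at 12, 24 and 48 h the change was no longer called in 4 settings: with no pseudocount it was 0.71, 0.75 and 0.69, centred 0.554, 0.60 and 0.48, with quantile normalization 0.53, 0.62 and 0.51, and without the arrays numbered 1 0.58, 0.68 and 0.69. With no filter it was not called at 12 h (0.69, limma adjusted p = 0.0666) and 48 h (0.66, limma adjusted p = 0.0612), where more probe sets were tested. Its F test in root explants passed with a pseudocount of 100 (limma adjusted p = 0.00347) and with no trend (limma adjusted p = 0.0416).

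With no pseudocount the AGL21 change in aerial explants at 48 h was called at 1.98, and the root minus aerial change turned to -0.75, -0.44 and -1.29 at 12, 24 and 48 h, with no call. Its described values at 96 h became 3.52 (root minus aerial), 4.57 (aerial against 0 h), 2.59 (aerial against 48 h) and -3.69 (difference of the changes). With a pseudocount of 100 they became 2.42, 0.74, 0.60 and 0.010, the last with its sign turned. For AGL42 with no pseudocount, the aerial changes at 12 and 24 h (3.19 and 1.84), the difference of the changes at 12 h (-3.23) and the aerial F test (limma adjusted p = 0.00216) were called, and the described values at 96 h became 5.61, 2.85, 1.33 and -3.31 in the same order. With a pseudocount of 100 its difference of the changes at 48 h was 0.07, and at 96 h the root minus aerial difference was 2.33 and the difference of the changes -0.52. The AGL42 change in root explants at 24 and 48 h, never called, was -0.11 and -0.077 centred, -0.070 and -0.011 with quantile normalization, and -0.054 and -0.13 without the arrays numbered 1, where the step from 24 to 48 h was -0.073, and that of AGL21 was 0.0070. The cause of these shifts was not tested.

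Leaving out 1 array at a time, the AGL21 change in root explants ran from 0.50 to 0.89 at 12 h, 0.60 to 0.805 at 24 h and 0.57 to 0.74 at 48 h, and its root F test gave adjusted p-values from 0.0306 to 0.234 in limma. Its uncalled steps ran from -0.16 to 0.22 and -0.14 to 0.060 in root and from -0.29 to 0.16 and -0.037 to 0.42 in aerial explants, and the difference of the changes at 48 h from -0.0018 to 0.40. For AGL42 the root changes ran from -0.31 to 0.16, -0.16 to 0.14 and -0.23 to 0.29 at 12, 24 and 48 h, the root steps from -0.14 to 0.33 and -0.25 to 0.27, the aerial step from 24 to 48 h from -0.25 to 0.074, and the difference of the changes at 48 h from -0.38 to 0.14. Of the 6 other MADS genes, 2 were called over time in root explants at 48 h and 1 at 96 h. These became 1 and 0 with no pseudocount, 1 at 48 h centred, with quantile normalization, without the arrays numbered 1, or without root 0 h replicate 2 or 3 or root 48 h replicate 1 or 2, and 2 at 96 h with the block or without root 0 h replicate 1.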
